A study of Mus musculus with 16 samples.

Results

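The high-fat and the normal diet were compared in the livers of mice that all ate WEPAK, an extract made with water from Pacific krill. The comparison holds 8 of the 16 libraries of the series. They are the 4 HFW mice (numbers 34, 36, 38 and 40; high-fat diet with 1% WEPAK) and the 4 NW mice (numbers 11, 12, 15 and 20; normal diet with 1% WEPAK), chosen by the feeding label alone. All were male C57BL/6J mice, entered at 4 weeks of age and fed for 18 weeks. The labels give the fat content only for the same diets without extract, 10% in the normal diet (N mice) and 45% in the high-fat diet (HF mice), and these 8 further mice serve as the reference diet contrast. Both groups compared received WEPAK, and an action of the extract that depends on the diet cannot be told apart from the diet difference within these 8 mice.

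Transcripts were counted by SuperSAGE, which sequences a short tag beside the NlaIII cutting site (CATG) nearest the poly(A) tail. A transcript thus yields at most 1 tag whatever its length. Each library came from a separately numbered mouse, and the labels give no preparation or sequencing batch. Libraries held 56655 to 101481 tags in named genes in HFW (75749 ± 21588, SD, n = 4) and 57642 to 120143 in NW (74198 ± 30660.3). Levels of single genes are given in CPM, tags per 1000000 after scaling to the normalized library size of the tested genes. On that scale 1 tag was worth 9.60 to 21.2 CPM in these 8 libraries. Summed marker levels are tags per 1000000 tags in all named genes, without that normalization, so they are on another scale than the gene levels. Enough tags for a test were had for 1046 genes.

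The liver takes up dietary and adipose fatty acids, esterifies them to triglyceride, stores them in lipid droplets or exports them in very-low-density lipoprotein, and oxidises the rest in mitochondria and peroxisomes. Fat in the diet also supplies what the liver otherwise makes from sugar through SREBP-1c (Srebf1) and its enzymes, and fatty acids are ligands of PPARalpha, the nuclear receptor that drives genes of fatty acid oxidation. Fasting-type glucose production, urea synthesis and xenobiotic oxidation are carried out by hepatocytes in zones along the sinusoid, and fibrosis is marked by collagens of stellate cells.

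What was counted for a gene is the tag, so tags predicted for 8 of the genes with the smallest p are shown, with NlaIII's CATG in capitals. They were read from the last CATG of the GENCODE M21 transcript (GRCm38) that carries the gene's RefSeq identifier.
Ephx1: CATGgctttaatgataaatgggttta
Ptprf: CATGgtactatactcagtcctcttat
Glrx5: CATGactgtcattcagcttaatttga
Fitm1: CATGggctaccagctggcgccccact
Bsg: CATGctctgacttactgttggagggg
Ak3: CATGgtgggttcaaaagcactgtaag
Cps1: CATGcaacatttttttttctttcttt
Mttp: CATGtctatttgtgtgaattaaaagg
The Ephx1 tag lies at chr1:180989563-180989588 on the minus strand, in the 3′ UTR within exon 9 of 9. That of Fitm1, at chr14:55576676-55576701 on the plus strand, lies in coding sequence in exon 2 of 2. The others lie in 3′ UTRs, at chr4:118208536-118208561 (minus) for Ptprf, chr12:105042774-105042799 (plus) for Glrx5, chr10:79711900-79711925 (plus) for Bsg, chr19:29021871-29021896 (minus) for Ak3, chr1:67231152-67231177 (plus) for Cps1 and chr3:138090061-138090086 (minus) for Mttp. None of these 8 tags was predicted for a second gene. Of the 149 genes named by rule, 137 had a predicted tag, and 10 of those tags were also predicted for other genes.

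No gene passed the test between HFW and NW. The edgeR quasi-likelihood test called 0 of 1046 genes (0% of those tested) after Benjamini-Hochberg adjustment at 0.05, with a smallest adjusted p of 0.176, and the DESeq2 Wald test and limma-voom called 0 as well. At an unadjusted p under 0.05 edgeR listed 126 genes (12.0%), 75 with higher levels in HFW (7.17%) and 51 with lower levels (4.88%), DESeq2 114 and limma-voom 127. All 4 HFW libraries lay above all 4 NW libraries for 60 genes (5.74%) and below them for 32 (3.06%), together 92 (8.80%), against 32 (3.06%) whose HF and N libraries did not overlap. Between HF and N, edgeR called 1 of 1046 genes after adjustment (smallest adjusted p = 0.0281), DESeq2 2 and limma-voom 0. The median log2 fold change of HFW minus NW was 0.05, and 562 genes (53.7%) had a positive value. The median SE was 0.36, the 95% interval lay within -1 to 1 for 407 genes (38.9%), and for 513 genes it included 0 and also reached a 2-fold difference. A missed threshold therefore does not show equal levels in the 2 groups.

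The call depended on which libraries were fitted. With the 8 HFW and NW libraries fitted alone, 680 genes were tested and 3 rose, Glrx5, Fitm1 and Bsg (edgeR adjusted p = 0.0435 for each). Their adjusted p ranged up to 0.467, 0.502 and 0.513 over the other settings. Without NW mouse 20, 3 genes passed, of which Srebf1 (1.86, adjusted p = 0.0194) and Mid1ip1 (1.44, adjusted p = 0.0264) were higher and Cyp4a14 (-1.83, adjusted p = 0.0243) lower. Srebf1 reached an adjusted p of up to 0.666 and Cyp4a14 of up to 0.683 in other settings.

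Per-library levels below follow the order of mice 34, 36, 38 and 40 in HFW and 11, 12, 15 and 20 in NW. None of the genes named passed the test on all 16 libraries, so their values are given as measured. The 8 genes of each direction with the smallest p are described first.

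Ephx1, the microsomal epoxide hydrolase that detoxifies reactive epoxides, had 209.7, 217, 147 and 202 CPM in HFW and 38.5, 67.2, 0 and 78.5 CPM in NW. The groups did not overlap, and NW mouse 15 had no Ephx1 tag. The log2 fold change was 1.94 (SE 0.48, 95% interval 0.97 to 2.91, edgeR adjusted p = 0.176). Entpd5, a nucleoside diphosphatase of the endoplasmic reticulum that supports glycoprotein folding, had 118, 237, 147 and 170.0 CPM in HFW and 38.5, 67.2, 21.2 and 78.5 CPM in NW, again without overlap and with few tags per library (log2 fold change 1.58, SE 0.44). Both genes rested on at most 19 tags in any of the 8 libraries.

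Several further genes with higher HFW levels act in signalling and cell organisation. Anapc5, a subunit of the anaphase-promoting ubiquitin ligase, had 577, 553, 736 and 478 CPM in HFW and 212, 307, 254 and 314 CPM in NW (log2 fold change 1.08, SE 0.28). Ptprf, a receptor tyrosine phosphatase that can act on the insulin receptor, had 983, 553, 799 and 584 CPM and 231, 432, 359.6 and 255 CPM (log2 fold change 1.16, SE 0.30). The Paqr7 transcript, for a membrane progestin receptor, stood at 341, 592, 357 and 467 CPM and 192, 211, 190.4 and 236 CPM (log2 fold change 1.07, SE 0.29). For each of them every HFW mouse lay above every NW mouse.

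Glrx5, the mitochondrial glutaredoxin of iron-sulfur cluster assembly, had 734, 711, 778 and 860.5 CPM in HFW and 269, 355, 381 and 432 CPM in NW (log2 fold change 1.10, SE 0.31). Fitm1, an endoplasmic reticulum protein that promotes lipid droplet formation, had 1271, 1559, 1745 and 1084 CPM and 751, 461, 571 and 766 CPM (log2 fold change 1.16, SE 0.35). Bsg, the chaperone of lactate transporters, had 1219, 1322, 946 and 914 CPM and 500.4, 614, 275 and 412 CPM (log2 fold change 1.25, SE 0.38). In all 3 the spread within NW and within HFW was smaller than the gap between the group means.

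**Figure D1:**
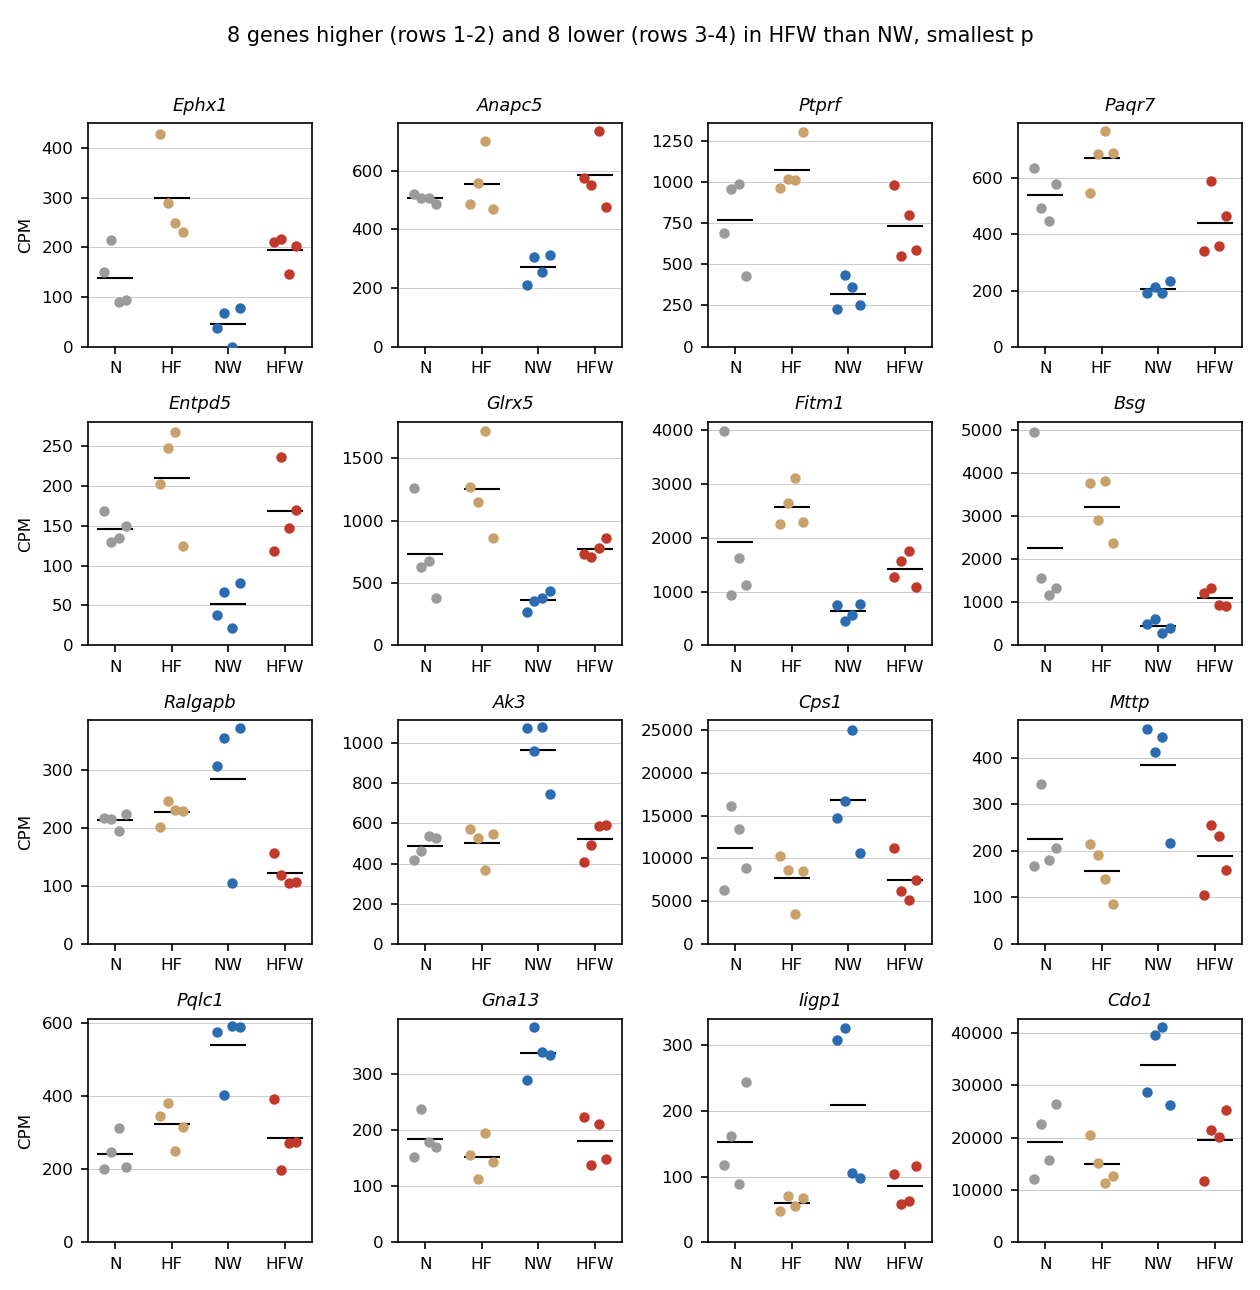
CPM of the 8 genes with higher (upper panels) and the 8 with lower levels (lower panels) in HFW than in NW at the smallest p, by group (N, HF, NW, HFW); each point is 1 mouse and each bar the mean of 4. The NW mean is the lowest of the 4 groups in the upper panels and the highest in the lower ones, and no gene passed the test.

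Among the genes with lower HFW levels, Cps1, which catalyses the first step of the urea cycle, had 11192, 6217, 5152 and 7426 CPM in HFW and 14762, 16690.0, 25106 and 10681 CPM in NW. HFW mouse 34 exceeded NW mouse 20, and the other HFW mice lay below all NW mice. The means were 7497 ± 2633 and 16809.9 ± 6072 CPM (SD, n = 4), and the log2 fold change was -1.16 (SE 0.33, 95% interval -1.84 to -0.48, edgeR adjusted p = 0.176). Mttp, the microsomal protein that loads triglyceride onto apolipoprotein B, had 105, 257, 231 and 159 CPM in HFW and 462, 413, 444 and 216 CPM in NW (log2 fold change -1.09, SE 0.36), with NW mouse 20 inside the HFW range. Cdo1, the dioxygenase that commits cysteine to taurine and sulfate, had 11795, 21396, 20186 and 25188 CPM and 28697, 39676, 41181 and 26172 CPM (log2 fold change -0.79, SE 0.28), and its groups did not overlap.

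Ak3, the adenylate kinase of the mitochondrial matrix that uses GTP, had 406, 493, 589 and 595 CPM in HFW and 1078, 959.7, 1079 and 746 CPM in NW (log2 fold change -0.89, SE 0.26). Gna13, a G protein alpha subunit, had 223, 138, 210.3 and 149 CPM and 289, 384, 338 and 334 CPM (log2 fold change -0.91, SE 0.31). Neither gene overlapped between the groups, and nor did Pqlc1, with 393, 197, 273 and 276 CPM and 577, 403, 592 and 589 CPM (log2 fold change -0.88, SE 0.29). In 2 genes the NW mice themselves were split. Ralgapb, a subunit of a Ral GTPase-activating complex, had 157, 118, 105 and 106 CPM in HFW and 308, 355, 106 and 373 CPM in NW (log2 fold change -1.24, SE 0.35), and NW mouse 15 fell within the HFW range. Iigp1, an interferon-induced GTPase, had 105, 59.2, 63.1 and 117 CPM and 308, 326, 106 and 98.2 CPM (log2 fold change -1.27, SE 0.44), with NW mice 15 and 20 at HFW levels.

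In all 16 of these genes the NW mean was the highest or the lowest of the 4 group means. For Anapc5 the HF mice averaged 554 ± 106 CPM and the N mice 506 ± 13.6 CPM (SD, n = 4), both near the HFW mean of 586 CPM. Ak3 averaged 504 ± 91 CPM in the HF mice and 487 ± 55.2 in the N mice, near the HFW mean of 521 CPM, where NW had 966 CPM. Bsg averaged 3220.4 ± 699.7 CPM in the HF mice and 2254 ± 1809 in the N mice, above both groups with extract. Genes chosen for a large difference between HFW and NW tend to have an extreme NW or HFW mean, so this order of the groups is a description.

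Cell type markers were checked before the gene groups. The gene lists below were chosen with earlier results of these data known. A share of a list set beside the share of all genes is therefore a description. Of the 12 hepatocyte markers all had tags, with 7756 tags in HFW and 11922 in NW. Their summed level was 22540 to 27004 CPM in HFW and 28009 to 44505 CPM in NW, so the groups did not overlap, NW mouse 20 being the nearest to HFW (exact two-sided permutation test, p = 0.0286, the smallest that 4 against 4 can give; adjusted p = 0.286 over 15 values). Without Cps1, which held the most tags, the sums were 18786 ± 2479 CPM in HFW and 24857 ± 5389 CPM in NW and overlapped (exact p = 0.143). Cps1 had 2113 tags in HFW and 4237 in NW, and Cyp2e1, whose predicted tag is shared with 1 other gene, 974 and 2140. Alb, Ttr, Apoa1, Apob and Serpina1b also had fewer tags in HFW. More tags in HFW were had by Hnf4a (171 and 152), Ahsg (789 and 747), Fabp1 (24 and 16), Tat (7 and 5) and Cyp3a11 (13 and 12). In RNA from whole liver, fewer cells of a type and less RNA per cell cannot be told apart.

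The 18 stellate cell and matrix markers summed to 1030 to 4414 CPM in HFW and 635 to 1197 CPM in NW (exact two-sided permutation p = 0.0571, adjusted p = 0.286). Col3a1 held 446 of their 735 tags in HFW and 128 of 272 in NW. Without Col3a1 the sums were 918 ± 582 CPM in HFW and 486 ± 136 CPM in NW (exact two-sided permutation p = 0.2). Acta2, Lrat, Timp1, Tagln and Mgp were at 0 tags in all 8 libraries. The 17 Kupffer cell and macrophage markers, of which Cd68, Lyz1, Lyz2, Ctss and Itgax were at 0, summed to 490 to 1308 CPM in HFW and 567 to 941 CPM in NW. The 14 endothelial markers summed to 777 to 946 CPM and 687 to 874 CPM, with Cdh5 at 0. Cholangiocyte, lymphocyte, neutrophil, red cell, adipocyte and pancreatic acinar markers had between 0 and 48 tags in a group. Gapdh, Eno1, Ftl1 and the red cell marker Hbb-b1 were also at 0 tags in HFW and NW. A 0 here therefore does not show that a transcript or a cell type was absent.

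Fatty acid and triglyceride synthesis genes showed no common direction. Of the 8 tested members of 22 listed, 4 had positive and 4 negative values, with a median of 0.09 beside 0.05 over all genes, and 0 passed. Leaving out 1 mouse at a time moved this median between -0.13 (without NW mouse 11) and 0.38 (without NW mouse 20), and it was also negative without HFW mouse 38 (-0.071). Srebf1, which encodes the transcription factor that drives this pathway, had 2660.4, 1007, 1661 and 1795 CPM in HFW and 500.4, 470.3, 465 and 2238 CPM in NW. NW mouse 20 lay among the HFW mice and the other 3 NW mice lay below them all. The log2 fold change was 0.98 (SE 0.49, edgeR adjusted p = 0.406), and 1.86 without that mouse. Mid1ip1, a partner that promotes polymerization of acetyl-CoA carboxylase and was singled out after its values were seen, had 4587, 3119, 3679.7 and 3028 CPM in HFW and 1578, 1334, 931 and 5419 CPM in NW (log2 fold change 0.64, SE 0.41). For Mid1ip1, NW mouse 20 lay above all HFW mice and the other 3 NW mice lay below them all.

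Enzymes of the same pathway were mixed. Acly, which makes cytosolic acetyl-CoA from citrate, had 183, 158, 168 and 372 CPM in HFW and 115, 125, 106 and 157 CPM in NW (log2 fold change 0.86, SE 0.42), with the smallest HFW value just above the largest NW value. Fasn, fatty acid synthase, had 1913, 1401, 2271 and 2082 CPM and 1213, 816, 1396 and 2513 CPM (log2 fold change 0.38, SE 0.42), and NW mouse 20 was the highest of the 8. Scd1, which desaturates stearate to oleate, had 10537, 4875, 6623 and 4186 CPM and 9624, 6382, 14044 and 11722 CPM (log2 fold change -0.67, SE 0.29). The value of Scd1 thus had the opposite sign to those of Fasn and Acly, and its groups overlapped.

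Dgat2, which attaches the last acyl chain of triglyceride, had a mean of 18990.3 ± 3555 CPM in HFW and 26540.5 ± 6407 CPM in NW (log2 fold change -0.48, SE 0.29). Fads1, a desaturase of polyunsaturated fatty acids, had 1801 ± 570.5 and 1178 ± 248 CPM (log2 fold change 0.60, SE 0.33), and Acacb, the mitochondrial acetyl-CoA carboxylase, 249 ± 149.8 and 273 ± 153 CPM (log2 fold change -0.20, SE 0.54). Thrsp, a regulator of lipogenesis, had 813, 1618, 1409 and 2379.6 CPM in HFW and 769.9, 2035, 1459 and 4594 CPM in NW. Its log2 fold change of -0.50 (SE 0.51) went to 0.09 without NW mouse 20, the highest library.

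**Figure D2:**
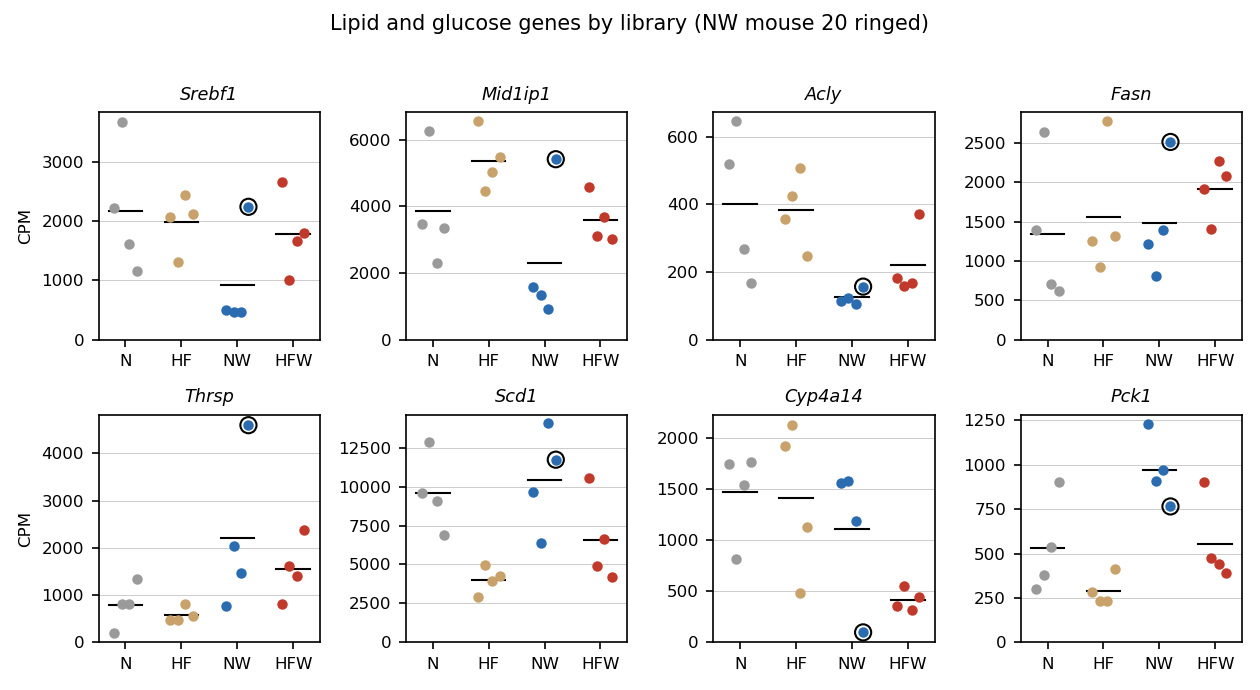
CPM of 8 genes of lipid synthesis, fatty acid hydroxylation and glucose production by group (N, HF, NW, HFW); points are mice, bars are means of 4 and the ring marks NW mouse 20. The ringed mouse stood at 2238 CPM of Srebf1 against 465 to 500.4 CPM in the other NW mice, and at 98.2 CPM of Cyp4a14 against 1184 to 1584 CPM.

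Of the 5 tested genes of lipid droplets and lipolysis, 2 had positive and 3 negative values (median -0.04). Fitm1, given above, was the 1 member with an unadjusted p under 0.05. Plin2, the main coat protein of hepatocyte lipid droplets, had 249, 138, 63.1 and 159 CPM in HFW and 212, 154, 106 and 78.5 CPM in NW (log2 fold change 0.19, SE 0.39, 95% interval -0.60 to 0.97). The interval of Plin2 leaves room for a difference of nearly 2-fold in HFW. Hsd17b13, a lipid droplet protein of hepatocytes, had -0.39 (SE 0.27), Mgll, monoglyceride lipase, -0.07 (SE 0.34) and Pnpla2, adipose triglyceride lipase, -0.04 (SE 0.35). The 15 untested members of the list had 40 tags in HFW and 46 in NW in all.

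Mitochondrial fatty acid oxidation genes fell on both sides. Of 9 tested, 4 had positive and 5 negative values (median -0.35), 0 passed, and at an unadjusted p under 0.05 there were 1 higher and 2 lower, beside 7.17% higher and 4.88% lower of all genes. The median was -0.11 without NW mouse 15 and -0.16 without HFW mouse 34. Acadvl, the very-long-chain acyl-CoA dehydrogenase of the first step, had 485, 434, 526 and 404 CPM in HFW and 269, 317, 254 and 236 CPM in NW without overlap (log2 fold change 0.75, SE 0.27, edgeR adjusted p = 0.275). Acaa2, the thiolase of the last step, had 341, 336, 631 and 436 CPM and 674, 633, 804 and 766 CPM, also without overlap and with HFW below NW (log2 fold change -0.73, SE 0.30). Etfa, the electron acceptor of the dehydrogenases, had 7589.8 ± 2082 CPM in HFW and 11689 ± 2826 CPM in NW (log2 fold change -0.62, SE 0.28), and Hadh, the dehydrogenase of the third step, 377 ± 67.8 and 219 ± 111 CPM (log2 fold change 0.83, SE 0.41). The first and last enzymes of the spiral thus had log2 fold changes of opposite sign.

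Peroxisomal oxidation genes and PPARalpha targets had negative values in 11 of 14 tested members (median -0.27), and 0 passed. Cyp4a14, a fatty acid omega-hydroxylase and a classical PPARalpha target, had 354, 553, 315 and 446 CPM in HFW and 1559, 1584, 1184 and 98.2 CPM in NW. NW mouse 20 had the lowest value of the 8, and the other 3 NW mice lay above all HFW mice (log2 fold change -1.42, SE 0.60, edgeR adjusted p = 0.367). Its relative Cyp4a10 had 91.7, 138, 189 and 63.7 CPM and 269, 211, 275 and 58.9 CPM, with the same mouse lowest (log2 fold change -0.85, SE 0.47). NW mouse 20, high for Srebf1, was thus low for both hydroxylases.

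Most of the remaining members also had negative values. Ehhadh, the peroxisomal bifunctional enzyme, had -0.85 (SE 0.51), catalase (Cat) -0.62 (SE 0.41), the peroxisomal reductase Decr2 -0.55 (SE 0.45), the peroxisomal thiolases Acaa1a -0.33 (SE 0.31) and Acaa1b -0.53 (SE 0.54), and Creb3l3, a fasting-responsive transcription factor, -0.21 (SE 0.29). Positive values were had by, among others, Acot2, an acyl-CoA thioesterase of mitochondria (0.79, SE 0.45, no overlap), and Hsd17b4, a peroxisomal bifunctional enzyme (0.45, SE 0.31). Scp2, a sterol carrier with thiolase activity (-0.12, SE 0.30), and Crat, carnitine acetyltransferase (-0.07, SE 0.45), had values near 0.

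Lipoprotein genes were balanced, with 6 positive and 6 negative values among 12 tested (median -0.03). Lcat, which esterifies cholesterol on high-density lipoprotein, had 2477, 2329, 1871 and 1668 CPM in HFW and 1463, 1382, 1396 and 589 CPM in NW without overlap (log2 fold change 0.78, SE 0.34). Apoc1, a small apolipoprotein, had 1638, 1599, 1514 and 1869.7 CPM and 1020.1, 1180.5, 973 and 1178 CPM, also without overlap (log2 fold change 0.60, SE 0.24). Mttp, given above, had a negative value.

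All 5 tested genes of bile acid synthesis and transport had negative values (median -0.45), with 0 at an unadjusted p under 0.05. Slc27a5, which activates bile acids for conjugation, had 3221 ± 262 CPM in HFW and 4408 ± 594 CPM in NW without overlap (log2 fold change -0.45, SE 0.26). Cyp27a1, the sterol hydroxylase of the acidic pathway, had -0.72 (SE 0.45), Slc10a1, the bile acid uptake transporter, -0.57 (SE 0.31) and Abcg8, part of the sterol exporter, -0.38 (SE 0.27). Of 25 genes of cholesterol synthesis and SREBP2 targets 2 could be tested, among them Tm7sf2, a sterol reductase (-0.67, SE 0.34). The rest of that list held 144 tags in HFW and 93 in NW over 23 genes.

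Glucose metabolism and insulin response genes had 3 positive and 6 negative values among 9 tested (median -0.27), and 0 passed. Pck1, which makes phosphoenolpyruvate for new glucose, had 904, 474, 442 and 393 CPM in HFW and 1232, 912, 973 and 766 CPM in NW. HFW mouse 34 lay among the NW mice and the other 3 HFW mice below all of them (log2 fold change -0.80, SE 0.32, edgeR adjusted p = 0.344). Pgk1, a glycolytic kinase, had 144, 158, 147 and 159 CPM and 269, 269, 169 and 432 CPM without overlap (log2 fold change -0.89, SE 0.37). Pygl, liver glycogen phosphorylase, had 209.7, 158, 231 and 159 CPM and 77, 106, 106 and 137 CPM, without overlap and in the other direction (log2 fold change 0.81, SE 0.40).

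Further enzymes of glycolysis and glucose production had log2 fold changes of smaller size than Pgk1. The log2 fold change was -0.53 (SE 0.32) for aldolase B, -0.33 (SE 0.28) for Fbp1, the fructose bisphosphatase of gluconeogenesis, and 0.20 (SE 0.31) for the isomerase Gpi1. Pklr, liver pyruvate kinase, had 0.58 (SE 0.43), Pcx, pyruvate carboxylase, -0.18 (SE 0.34), and Slc2a2, the GLUT2 transporter, -0.27 (SE 0.29).

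Amino acid catabolism and urea cycle genes had negative values in 7 of 11 tested members (median -0.31), with 2 lower at an unadjusted p under 0.05 (4.88% of all genes), Cps1 and Agxt. Agxt, which detoxifies glyoxylate, had 1508 ± 350.2 CPM in HFW and 2219 ± 199 CPM in NW without overlap (log2 fold change -0.55, SE 0.27). Ass1, a later enzyme of the urea cycle, had -0.54 (SE 0.42) and Tdo2, which opens the tryptophan ring, -0.72 (SE 0.37). Cps1 is one of the 12 hepatocyte markers and Agxt, Ass1 and Tdo2 are not, but the marker sum moved in the same direction, and its part in these values was not tested.

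In sulfur amino acid and one-carbon metabolism, 7 of 13 tested members had an unadjusted p under 0.05, 2 higher and 5 lower, beside 12.0% of all genes. None of them passed, and because the list was chosen with earlier results of these data known, its share is a description. Gclc, the catalytic subunit that limits glutathione synthesis, had 5517, 3908, 5257 and 4313 CPM in HFW and 3734, 2850.4, 2919 and 2297 CPM in NW without overlap (log2 fold change 0.69, SE 0.25, edgeR adjusted p = 0.275). The cysteine-consuming enzyme Cdo1, given above, lay on the opposite side. Cbs, which joins homocysteine with serine, had 839, 296, 547 and 903 CPM and 1251, 883, 1354 and 1355 CPM (log2 fold change -0.86, SE 0.32), HFW mouse 40 lying just above the lowest NW mouse. Ahcy, which splits adenosylhomocysteine, had 537, 612, 442 and 733 CPM and 924, 941, 931 and 1001 CPM without overlap (log2 fold change -0.69, SE 0.27). The NW mice differed little among themselves for Ahcy.

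All 14 tested cytochrome P450 genes and partners had negative values, from -0.98 to -0.15 with a median of -0.50, and 0 passed. The share of negative values over all genes was smaller, 484 of 1046, but the list was chosen with earlier results of these data known. Leaving out any of the 8 libraries left 13 or 14 of them negative, with medians of -0.64 to -0.31. Cyp2d22 had 760.1, 730.3, 1156 and 1105 CPM in HFW and 1578, 1574, 1734 and 1257 CPM in NW without overlap (log2 fold change -0.71, SE 0.27, edgeR adjusted p = 0.294). Cyp2e1, which oxidises ethanol and small solvents, had 1520.2, 8092, 2923 and 3283 CPM and 9431, 10788, 5647 and 5085 CPM (log2 fold change -0.98, SE 0.58), and -1.62 without HFW mouse 36, the highest of its group. The predicted Cyp2e1 tag is shared with 1 other gene, so the level may not be its own. Por, the reductase that feeds electrons to these enzymes, had -0.65 (SE 0.41), and Cyp2d40, of a family of close copies whose predicted tag is shared with 6 other genes, -0.78 (SE 0.37). Summed hepatocyte markers, among them Cyp2e1, were also lower in HFW, with means of 25411 and 39155 CPM, and their part in this pattern was not tested.

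Conjugation enzymes and epoxide hydrolases did not share that direction, with 6 positive and 5 negative values among 11 tested (median 0.27, and -0.0082 without HFW mouse 40). Besides Ephx1, Mgst1, a microsomal glutathione transferase, had 262, 493, 252 and 393 CPM in HFW and 250.2, 86.4, 169 and 353 CPM in NW (log2 fold change 0.78, SE 0.38), with overlap. Gsta3, a soluble glutathione transferase, had 0.40 (SE 0.28) and Ugt2b36, a glucuronosyltransferase, 0.37 (SE 0.33). Antioxidant and selenoprotein genes had 6 positive values and 1 negative among 7 tested (median 0.43) with 0 at an unadjusted p under 0.05. The exception was Sod1, cytosolic superoxide dismutase (-0.55, SE 0.35). Sephs2, which supplies selenium for selenoproteins, had 0.74 (SE 0.40), and Gpx4, the peroxidase of membrane lipids and one of the most abundant tags, 0.43 (SE 0.27). The predicted Gpx4 tag also occurs in 1 other gene.

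Genes of protein folding and synthesis gave small medians. Of 9 tested genes of the endoplasmic reticulum 5 had positive values (median 0.10), among them the chaperone calreticulin (Calr, 0.74, SE 0.40) and the disulfide isomerase Pdia6 (0.84, SE 0.45). Negative values were had by Sec61a1, the translocon channel, without overlap (-0.54, SE 0.27), and by the stress-induced Herpud1 (-0.56, SE 0.32). Of 5 cytosolic ribosomal proteins, Rpl38 was lower (-0.58, SE 0.25) and Rpl10a higher (0.75, SE 0.34, tag shared with 2 other genes). Medians were 0.02 for 6 oxidative phosphorylation subunits, 0.00 for 4 proteasome subunits, of which Psmb6 had 1.36 (SE 0.50), and 0.19 for 3 mitochondrial ribosomal proteins, of which Mrps14 had 0.71 (SE 0.33) without overlap.

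Clock and growth hormone genes were few above the filter. Tef, a clock-controlled transcription factor, had 1992 ± 267 CPM in HFW and 2871 ± 418 CPM in NW without overlap (log2 fold change -0.53, SE 0.26), and the clock repressor Nr1d1 0.39 (SE 0.37). Igfals, which holds insulin-like growth factors in blood, had 777 ± 158 and 518 ± 129 CPM without overlap (log2 fold change 0.55, SE 0.33), and the growth hormone receptor Ghr -0.32 (SE 0.33). Mup21, of the major urinary protein family with near-identical copies, had -0.90 (SE 0.46) and its tag is uncertain for that reason.

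Iron and plasma protein genes were led by hemopexin. Hpx, which carries heme in plasma, had 2451, 1283, 1787 and 669 CPM in HFW and 924, 893, 613 and 569 CPM in NW (log2 fold change 1.03, SE 0.34, edgeR adjusted p = 0.225). HFW mouse 40 lay among the NW mice and mouse 34 was the highest. The iron list had 3 positive and 6 negative values among 9 (median -0.14), with Trfr2, the hepatocyte sensor of transferrin, at -0.48 (SE 0.26, no overlap), Slc39a14, a metal importer, at -0.60 (SE 0.31) and Fech, which inserts iron into heme, at -0.34 (SE 0.34). The predicted Fech tag is shared with 2 other genes. Without HFW mouse 40 the iron list had 1 positive and 8 negative values.

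Acute-phase genes had 2 positive and 3 negative values among 5 (median -0.21), with Itih4, an inhibitor heavy chain of plasma, at 0.68 (SE 0.30), fibrinogen alpha (Fga) at 0.40 (SE 0.49) and fibrinogen gamma (Fgg) at -0.58 (SE 0.30). Inflammatory genes of that list such as Tnf and Il6 had 0 tags in HFW and in NW, which does not show that they were absent. Its 26 untested members held 152 tags in HFW and 114 in NW. Among them were Saa1 (14 and 0) and Saa2 (25 and 3), and in the other direction Hp (24 and 44). These tags are summed over the mice of a group, so a single mouse may hold most of them, and the differences were not tested. Complement and coagulation genes were balanced, 9 positive and 6 negative among 15 (median 0.07). Secreted hepatocyte proteins had negative values in 12 of 17 (median -0.27), such as albumin (Alb, 5209 ± 1021 CPM in HFW and 7000.5 ± 1447 CPM in NW, log2 fold change -0.43, SE 0.26) and the near-identical serine protease inhibitors Serpina1b (-0.86, SE 0.38) and Serpina1c (-0.82, SE 0.34), whose tags can be split between copies. Alb and Serpina1b are themselves hepatocyte markers, and the part of the marker sum in this list was not tested.

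Periportal and pericentral hepatocyte genes were compared because zones differ in gene content. Periportal genes had negative values in 8 of 9 tested members (median -0.44), with Cps1, Pck1 and Serpina1b lower at an unadjusted p under 0.05 (4.88% of all genes), and 8 or 9 were negative without any 1 of the 8 libraries. Cps1 and Serpina1b are also among the hepatocyte markers, whose sum was lower in HFW (25411 against 39155 CPM), and its part in these values was not tested. The predicted tag of Serpina1b is shared with 4 other genes. Pericentral genes had 5 positive and 6 negative values among 11 (median -0.06), with Gulo, the last enzyme of vitamin C synthesis, at 0.79 (SE 0.49) and Tbx3, a transcription factor of that zone, at -0.52 (SE 0.36). The difference between the zones was not tested.

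Stellate cell and matrix genes, mostly collagens, had the highest median of the lists with 3 or more tested members. Of 4 tested stellate cell and matrix genes, 3 had positive values (median 1.45), and 0 passed. A gene can clear the count filter through the group where it is high, so this median describes those 4 genes only. The 14 untested members of the list held 89 tags in HFW and 63 in NW. The median was 0.64 without HFW mouse 34 and at most 1.65 without any other of the 8 mice. Col3a1, a fibrillar collagen, had 2988, 711, 1998 and 924 CPM in HFW and 192, 489, 656 and 707 CPM in NW without overlap, the gap between the lowest HFW and the highest NW mouse being small (log2 fold change 1.70, SE 0.70, edgeR adjusted p = 0.361). Col1a1 had 760.1, 59.2, 336 and 159 CPM and 0, 96, 127 and 58.9 CPM, with no tag in NW mouse 11. Its log2 fold change was 2.17 (SE 0.95), and 1.26 without HFW mouse 34. Col1a2 had 721, 158, 147 and 117 CPM and 96.2, 115, 212 and 98.2 CPM, a log2 fold change of 1.20 (SE 0.80) that became 0.08 without HFW mouse 34. Reln, which stellate cells also express, had -0.25 (SE 0.46).

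**Figure D3:**
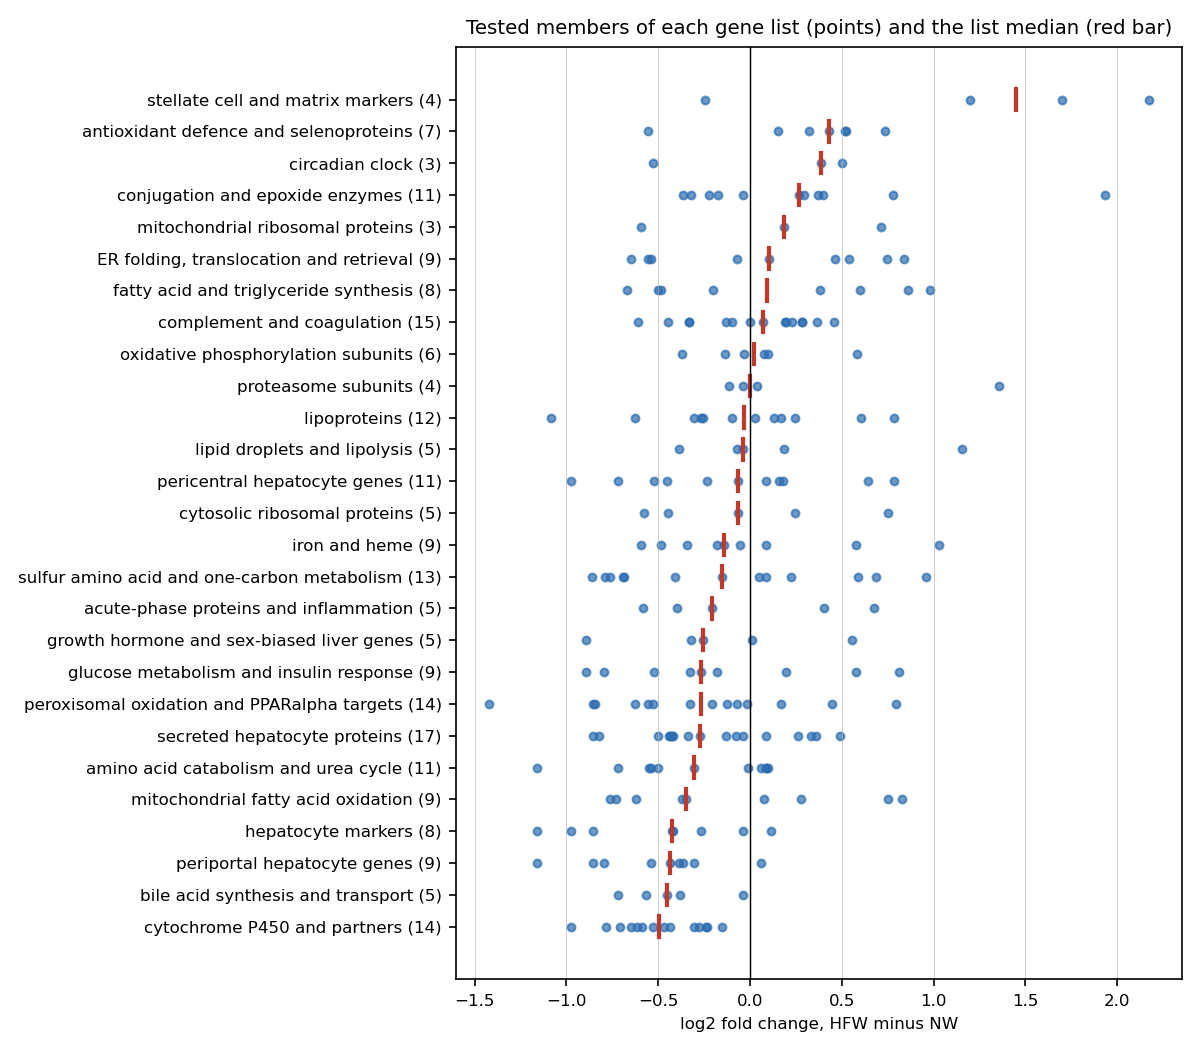
Log2 fold changes of HFW minus NW (x axis) for the tested members of each gene list with 3 or more of them (points), with the list median as a bar and the number tested in brackets. All 14 cytochrome P450 points lie below 0, and 3 of the 4 stellate cell and matrix points lie above 1.

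The HFW mice differed from each other in more than collagens. Tubb2a, a beta tubulin, had 13407, 3039.6, 7822 and 3017 CPM in HFW and 2309.7, 1392, 5055 and 1963 CPM in NW. The Tubb2a log2 fold change of 1.36 (SE 0.58) was 0.75 without HFW mouse 34. Gas6, a ligand of TAM receptor kinases, had 8479, 6099, 12406 and 3325 CPM and 2502, 2716, 3025 and 4810.4 CPM (log2 fold change 1.21, SE 0.65), with mouse 38 highest and mouse 40 inside the NW range. On principal component 1, computed from the 500 genes of largest variance (28.7% of it), mice 34 and 38 scored 12.5 and 9.56, mouse 36 scored 3.83 and mouse 40 -0.14, and the NW mice lay between -8.49 and -4.47. All HFW mice thus lay on 1 side of all NW mice, with mouse 40 nearest to NW. Correlations of log2 CPM were 0.869 to 0.908 between HFW mice, 0.895 to 0.934 between NW mice and 0.851 to 0.915 across the groups.

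**Figure D4:**
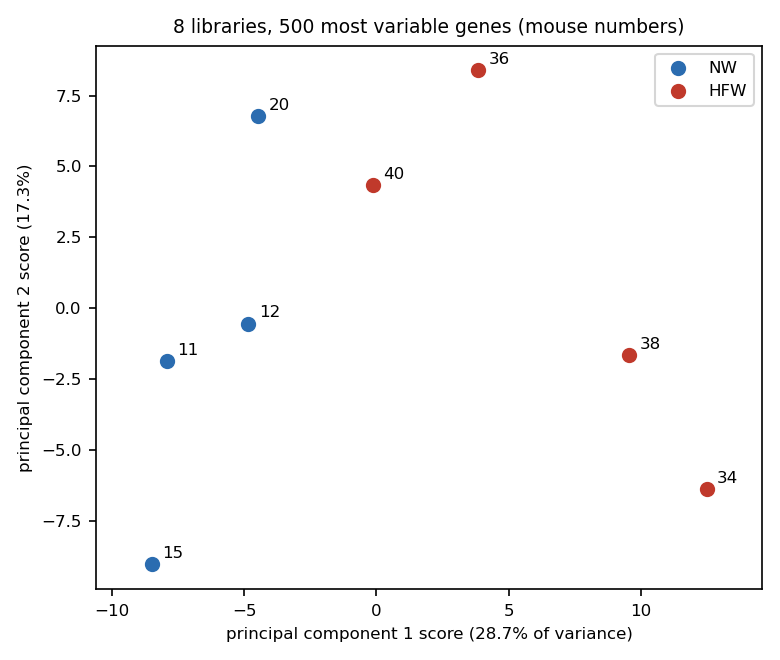
Scores of the 4 HFW and 4 NW libraries on principal components 1 (x axis) and 2 (y axis), from log2 CPM of the 500 genes with the largest variance, each point a mouse with its number. HFW mouse 34 has the highest first score (12.5) and HFW mouse 40 (-0.14) is nearest to the NW mice.

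Among abundant tags, those assigned to Lars2, the mitochondrial leucyl-tRNA synthetase, made up 5.31% to 7.71% of HFW tags and 7.61% to 8.61% of NW tags (exact two-sided permutation p = 0.0571, adjusted p = 0.286). In normalized levels Lars2 had 74568 ± 12379.8 CPM in HFW and 97032 ± 5257 CPM in NW without overlap (log2 fold change -0.38, SE 0.28). Whether all these tags came from the Lars2 transcript was not tested, so the level may not be its own. Apoa2, an apolipoprotein of high-density lipoprotein, had 39604, 73681, 69115 and 70443 CPM and 66941, 66049.6, 82023 and 87176 CPM (log2 fold change -0.26, SE 0.25), HFW mouse 34 being far below the rest. Gc, the vitamin D carrier, had 10735 ± 1688 CPM and 14506 ± 676 CPM without overlap (log2 fold change -0.43, SE 0.31).

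The diet difference with extract was then set beside the diet difference without it, which shares no library with it. Over 1046 genes the log2 fold changes of HFW minus NW and HF minus N had Pearson r = 0.50 and a Spearman correlation of 0.48, a description across genes, which are not independent replicates, and 693 genes (66.3%) had the same sign. An unadjusted p under 0.05 was had by 9.85% of the tested genes in HF minus N. In both contrasts it was had by 24 genes, and 23 of them had the same sign. Pck1 had -0.80 with extract and -0.85 without, Acaa2 -0.73 and -0.99, Etfa -0.62 and -0.60, Scd1 -0.67 and -1.25, and Agxt -0.55 and -0.86. Glrx5 had 1.10 with extract and 0.77 without, Ephx1 1.94 and 1.05, and Iigp1 -1.27 and -1.29. Pck1, Acaa2 and Etfa thus had lower mean levels on the high-fat diet in both pairs of groups, and none of the 8 genes just named passed edgeR's test in either.

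The 1 gene of the 24 with opposite signs was St3gal5, which makes the ganglioside GM3. It had 118, 98.7, 42.1 and 63.7 CPM in HFW and 115, 173, 254 and 118 CPM in NW, against 143, 184, 111 and 115 CPM in HF mice 23, 25, 28 and 29 and 67.2, 53.9, 44.8 and 75.1 CPM in N mice 4, 5, 7 and 8. The log2 fold change was -0.997 with extract and 1.22 without, and their difference was -2.21 (SE 0.61, 95% interval -3.46 to -0.97, edgeR adjusted p = 0.997).

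**Figure D5:**
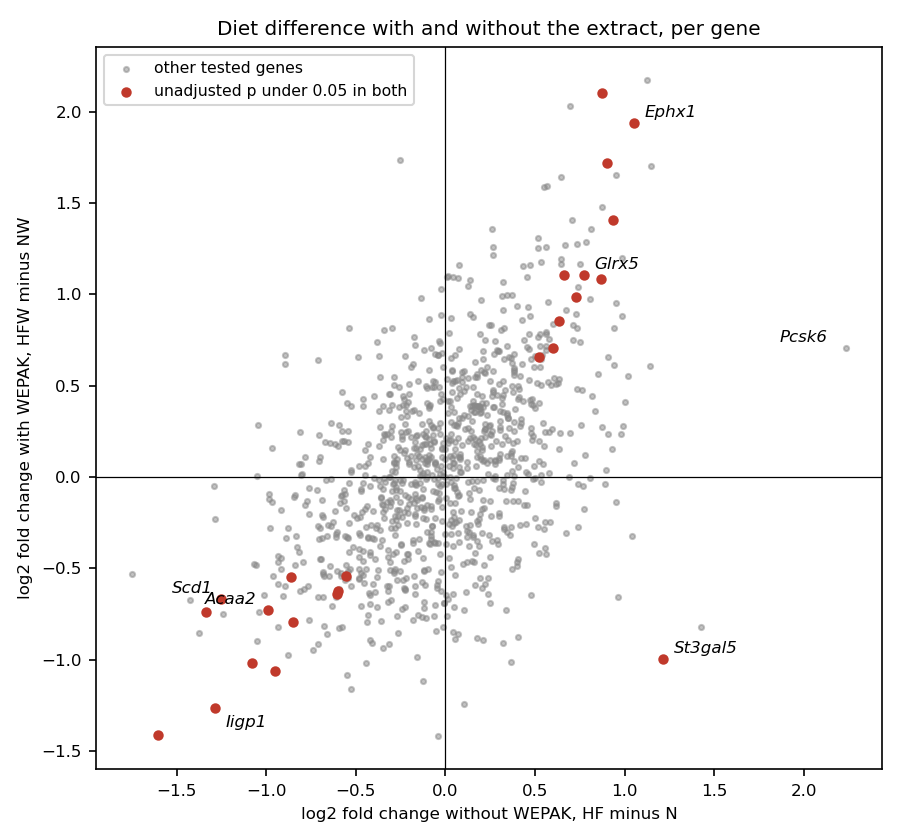
Log2 fold change of HFW minus NW (y axis, with WEPAK) against that of HF minus N (x axis, without it) for the 1046 tested genes; larger points are the 24 genes with an unadjusted p under 0.05 in both. Of these, 23 lie in the quadrants of equal sign and St3gal5 lies apart at -0.997 and 1.22.

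The test of the difference between the diet contrasts, (HFW minus NW) minus (HF minus N), called 0 genes by edgeR (0%), DESeq2 and limma-voom, with a smallest edgeR adjusted p of 0.997. At an unadjusted p under 0.05 edgeR listed 26 genes (2.49%), DESeq2 16 and limma-voom 35. On the positive side the smallest p were had by Anapc5 (0.94, SE 0.37), Dsp, a desmosome protein (1.04, SE 0.44), Ldha, lactate dehydrogenase A (1.12, SE 0.48), and Pvrl3, a nectin adhesion molecule (1.56, SE 0.69). Ldha had 577, 691, 336 and 446 CPM in HFW and 346, 249.5, 296 and 353 CPM in NW, with means of 508 CPM for HF and 670.3 CPM for N. The 2 Ldha contrasts thus pointed in opposite directions (0.74 and -0.38). The Pvrl3 contrast with extract rested on HFW mouse 40, its value being 0.67 with it and -0.01 without it.

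On the negative side, after St3gal5, stood Pqlc1 (-1.28, SE 0.41), Strbp, an RNA-binding protein (-1.62, SE 0.56), and Ralgapb (-1.34, SE 0.47). Strbp had 157, 118, 84.1 and 63.7 CPM in HFW and 154, 154, 148 and 216 CPM in NW, with means of 175 CPM for HF and 90.5 CPM for N. In lipid synthesis, Srebf1 had a difference of 1.12 (SE 0.68) between the contrasts, Acly 0.95 (SE 0.54) and Scd1 0.58 (SE 0.41). List medians without extract were -0.29 for fatty acid and triglyceride synthesis (0.09 with extract), -0.45 for the cytochrome P450 list (-0.50), -0.42 for the glucose list (-0.27), -0.48 for periportal genes (-0.44) and 1.06 for stellate cell and matrix genes (1.45). The medians of the P450, glucose and periportal lists thus lay on the same side of 0 in both diet contrasts. So did that of the stellate cell and matrix list, whose summed level without extract was 4360 CPM in HF mouse 28, against 699.7 to 1607 CPM in the other HF mice and 695 to 1315 CPM in the N mice. For lipid synthesis the sign with extract depended on single mice, as given above, and the difference between the contrasts was not tested for the list.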

How the data were processed

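SuperSAGE libraries of liver RNA from 16 mice were made with NlaIII and EcoP15I, per the labels' protocols. Per the file headers, the deposited values are unnormalized tag counts for RefSeq transcripts, with 1 column for each mouse. For tag matching, the RefSeq release and tags of several transcripts, the method is not given in the sources used here. Of 26782 rows, 417 without a gene symbol (0.0729% of tags) were left out, 40 of 41 symbols turned into dates were restored, and counts were summed per symbol (20826 symbols, 10171 with a tag). No molecular identifiers are named in the labels, and PCR duplicates may thus be among the counts. The labels name mice by number only, so p-values measure the spread between these mice.

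Counts were fitted in R 4.3.3 with edgeR 4.0.16: TMM normalization, the default expression filter by group (minimum count 10, 1046 genes), and a robust quasi-likelihood F test on all 16 libraries with a mean per group, Benjamini-Hochberg adjustment at 0.05. SE, which is approximate, is the log2 fold change over the root of F. Contrasts were HFW minus NW, HF minus N and their difference. Log2 CPM used a prior count of 2. The code was tested on simulated counts carrying known fold changes. Single values per library were compared by exact permutation over the 70 splits of 8 mice (SciPy 1.17.1).

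The members and the 37 gene lists were chosen with earlier results of these data known. Named genes are the 8 per direction with the smallest p in HFW minus NW, 4 per direction in the difference of contrasts, up to 4 per list with the smallest p, every tested member of 4 lists on lipid and glucose metabolism, and genes above 1% of a library; a few of these are not reported here. Alternatives were DESeq2 size factors, other filters, DESeq2 1.42.0, limma-voom (limma 3.58.1), a non-robust fit, separate RefSeq rows, thinning to the smallest library, the 8 libraries alone, leaving out the 10 most abundant genes, and leaving out each mouse. Marker sums without their most abundant gene, and list medians without each HFW or NW mouse, were chosen after seeing the data. Tag sequences were read beside the NlaIII site nearest the 3' end of GENCODE M21 transcripts (GRCm38), and no build is given for the table in the sources used here.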

Additional observations from a re-analysis of the deposited data

Results flagged for a closer look

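In groups of 4 mice a value was listed when its gap to the nearest other mouse, divided by the range of the group, exceeded Dixon's 95% critical value. Of 322 groups checked 29 met this (9.01%), where chance gives about 1 in 20 for independent, normally distributed values. CPM of genes named for a small p and sums of a single tag are not such values, so the rates cannot be compared.

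NW mouse 20 accounted for 10 of the listed values, of which 9 are given. It was highest for Srebf1 (2238 CPM, others 465 to 500.4), Strbp (216 CPM), Car3 (6892 CPM), Igfbp4 (2768 CPM, its predicted tag shared with 202 other genes, so that the level may not be its own) and Slc38a4 (35577 CPM). It was lowest for Lcat (589 CPM, others 1382 to 1463), Serpina1c (275 CPM), Psmd6 (58.9 CPM) and the hepatocyte marker sum (28009 CPM, others 41983 to 44505). Without this mouse the log2 fold change of HFW minus NW went from 0.78 to 0.52 for Lcat and from 0.98 to 1.86 for Srebf1.

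HFW mouse 34 was highest for Pck1 (904 CPM, others 393 to 474), Herpud1 (1062 CPM), Col1a2 (721 CPM, others 117 to 158) and the summed immediate early and heat shock genes (876 CPM, others 265 to 338). It was lowest for Tm7sf2 (65.5 CPM, others 287 to 316) and Apoa2 (39604 CPM, others 69115 to 73681).

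HFW mouse 36 was highest for Mup21 (671 CPM), Rpl7 (257 CPM), Scp2 (2072 CPM), each of these 3 with a predicted tag shared with 1 other gene, and the neutrophil marker sum (16.9 CPM, a single tag). HFW mouse 40 was highest for Acly (372 CPM, others 158 to 183) and Ndufb7 (499 CPM). NW mouse 12 had the most tags (120143, others 57642 to 60767), the highest Slc10a1 (1017 CPM) and pancreatic acinar marker sum (8.32 CPM, a single tag) and the lowest Pqlc1 (403 CPM, others 577 to 592). NW mouse 15 was highest for Slc39a14 (1290.2 CPM) and Col1a2 (212 CPM), and NW mouse 11 for Pcx (519.7 CPM).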

How the results depend on the processing

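The count of genes past the threshold in HFW minus NW was 0, and 0 with DESeq2 size factors, with no filter, with at least 30 counts in 4 libraries, with the DESeq2 Wald test, limma-voom, a non-robust fit, separate RefSeq rows, thinning to the smallest library, and without the 10 most abundant genes. It was 3 with the 8 libraries alone (Bsg, Fitm1 and Glrx5, all higher) and 0 to 3 when each mouse was left out, 3 only without NW mouse 20 (Srebf1 and Mid1ip1 higher, Cyp4a14 lower), with 93 to 163 genes at an unadjusted p under 0.05. The count for the difference between the diet contrasts was 0 in each of these that was run, with 13 to 55 at an unadjusted p under 0.05 when a mouse was left out. The cause was not tested. No paired analysis was possible because each mouse number occurs in a single group.

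Of 3744 recomputed values of genes chosen by the naming rule 5 passed, 1 for each of the genes above other than Mid1ip1, which the rule did not choose. Another sign was had by 60, each with an unadjusted p of 0.05 or more both ways. DESeq2 size factors moved the median of all genes by -0.02, and none of the 54 list medians under DESeq2 size factors or as differences of mean log2 CPM moved by over 1 SD between mice. When each HFW or NW mouse was left out, 8 of 27 list medians did. They ran from -0.17 to 0.26 for lipid droplets and lipolysis, 0.16 to 0.48 for antioxidant defence, -0.24 to 0.39 for ER folding, -0.19 to 0.10 for oxidative phosphorylation, -0.24 to 0.088 for cytosolic ribosomal proteins, -0.39 to 0.040 for iron and heme, -0.080 to 0.15 for complement and coagulation and -0.68 to -0.34 for hepatocyte markers. At these depths 1 tag is up to 21.2 CPM, so the lowest levels rest on a few tags.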

Other observations

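Among the 24 genes with an unadjusted p under 0.05 in both diet contrasts, several outside the lists were singled out after their values were seen, and none passed edgeR's test with extract. Mup19, of the major urinary proteins that males secrete and a family of near-identical copies, averaged 1846 CPM in HFW and 4905 CPM in NW, with 1277 and 3872 CPM in the HF and N mice. Its log2 fold change was -1.41 with extract and -1.60 without. Ces3b, a carboxylesterase of hepatocytes, averaged 645 CPM in HFW and 1322 CPM in NW, with 336 and 709 CPM in the HF and N mice, a value of -1.02 with extract and -1.08 without. Pipox, a peroxisomal oxidase of pipecolate and sarcosine, had -1.06 with extract and -0.95 without.

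Genes with higher levels on the high-fat diet in both pairs of groups included Tgm2, tissue transglutaminase, which crosslinks proteins. Tgm2 averaged 298 CPM in HFW and 99.3 CPM in NW, with 573 and 300.4 CPM in the HF and N mice (1.41 with extract and 0.94 without). Copa, a subunit of the COPI coat of Golgi vesicles, had 0.85 with extract and 0.63 without, and Chmp4b, a subunit of the ESCRT-III complex, 0.99 with extract and 0.73 without. Aldh5a1, the mitochondrial succinic semialdehyde dehydrogenase, had 1.09 with extract and 0.87 without.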
